A study of Homo sapiens with 2 samples.

Results

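ETNK2 is one of 9 human genes described here that make the headgroups of the main membrane phospholipids, and on an array of SCTR siRNA-treated cells its signal was a small part of that on the control array. The 9 genes were taken by symbol: the kinases ETNK1, ETNK2, CHKA and CHKB, the cytidylyl transferases PCYT1A and PCYT2, the transferases CHPT1 and CEPT1, and the decarboxylase PISD. Of these, 8 had at least 1 named probe, among 10161 genes with a named probe in all, and PCYT1A had 0. A named probe is one in the authors' processed table that carries 1 gene symbol, and that table holds only part of the array's probes. Whether the array has other probes for a gene without a named one was not examined. The set was assembled around ETNK2 because ETNK2 stood among the most lowered genes of this same comparison, so its difference is a description and supports nothing by itself.

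The cells were MCF-10A, an established line of human breast epithelium that is not malignant. They received an siRNA, a short duplex RNA that guides the breakdown of a matching transcript, either a negative control or one against SCTR, the secretin receptor, which is coupled to G proteins and raises cyclic AMP. Each of the 2 groups was a single Illumina bead array, so there was no replicate, no test and no error between samples for any value below, and the 2 arrays limit the precision. The labels give neither the time after transfection nor the siRNA dose, and 0 probes were named SCTR, so the knockdown was not checked and every direction rests on the labels. At a detection p under 0.01, between 32.2% and 33.5% of 47316 probes were detected per array. Of 13 mammary epithelial markers, 6 had a named probe (KRT8, CDH1, CDH3, EPCAM, ITGB4 and LAMB3), and all 6 were detected on both arrays. Of all 10161 genes with a named probe 8661 were detected on both, so detection of these 6 says little about the cell type. The other 7, among them KRT5, KRT14 and TP63, carried no named probe. Of 5 genes that are also used as leukocyte markers, 2 had a named probe, CD14 and CD68, and these were detected on both arrays. PTPRC, CD3E and MS4A1 had none. Of 4 endothelial and 5 fibroblast markers 1 had a named probe, and 0 were detected on both. CD14 and CD68 spanned log2 levels of 11.9 to 13.7, with differences between arrays of -0.52 to 1.78, and their part in the results was not tested.

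Phosphatidylcholine and phosphatidylethanolamine, the main phospholipids of mammalian membranes, are built by parallel branches of the Kennedy pathway. A kinase phosphorylates choline or ethanolamine, a cytidylyl transferase activates the product with CTP, and a transferase joins the headgroup to diacylglycerol. Phosphatidylethanolamine also arises in mitochondria, where PISD removes the carboxyl group of phosphatidylserine. ETNK1 and ETNK2 are paralogous ethanolamine kinases, and in mouse Etnk2 is known for a role in late pregnancy.

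The promoter sequences of the 2 ethanolamine kinase genes are shown because the set was assembled around ETNK2 and ETNK1 is its paralog. Each window covers 250 bases before to 50 bases after the annotated start (RefSeq, GRCh38.p14), 5′ to 3′ on the gene's own strand, at chr1:204151995-204152294 (minus strand) for ETNK2 and chr12:22624921-22625220 (plus strand) for ETNK1. Capitals mark the GC box GGGCGG and the core TGACG of the cyclic AMP response element, each on either strand.
ETNK2: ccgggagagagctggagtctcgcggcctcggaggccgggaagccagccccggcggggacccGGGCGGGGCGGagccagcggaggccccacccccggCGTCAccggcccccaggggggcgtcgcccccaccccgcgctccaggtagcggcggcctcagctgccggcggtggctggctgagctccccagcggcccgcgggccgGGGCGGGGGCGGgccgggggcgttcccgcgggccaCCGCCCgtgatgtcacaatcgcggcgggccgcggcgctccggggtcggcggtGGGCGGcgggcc
ETNK1: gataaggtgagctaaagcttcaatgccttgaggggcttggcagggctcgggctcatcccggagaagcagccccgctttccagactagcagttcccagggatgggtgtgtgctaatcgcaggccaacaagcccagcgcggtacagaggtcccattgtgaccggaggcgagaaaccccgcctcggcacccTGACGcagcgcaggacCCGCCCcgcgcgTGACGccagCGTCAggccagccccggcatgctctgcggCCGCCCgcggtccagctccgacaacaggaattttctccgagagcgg
The ETNK2 window held 6 GC boxes, some overlapping, and 1 core, and the ETNK1 window 2 GC boxes and 3 cores. The GC content was 83.7% for ETNK2, higher than in 99.5% of 34796 promoter windows of this length, and 65.7% for ETNK1. A GC box occurs in 44.9% of all windows and the core in 24.5%. The full cyclic AMP element TGACGTCA, which contains the core and occurs in 1.84% of windows, was found in neither, and nor were CCAAT (34.6%), TATAAA (11.6%), the E-box CACGTG (7.2%) or the sterol element TCACNCCAC (1.12%). These matches describe letters only, and the arrays measured no promoter activity.

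Levels of the members were read as probe intensities and as background-corrected, quantile-normalized log2 levels, and a difference is always SCTR siRNA minus control siRNA in log2 level. The 8 measured genes had 14 probes, all detected on both arrays, as were 8661 of the 10161 genes with a named probe. ETNK2 was lower on the SCTR siRNA array by 10.2-fold, while the other 7 genes lay between -0.48 and 0.44 on the log2 scale, 0 of them 1.5-fold apart by the brightest probe (42.1% of all genes were). Thus 1 of 8 was lower by 2-fold or more and 0 were higher by that much. Of all 8661 genes, 8.44% were lower and 9.74% higher by that rule. Since ETNK2 was chosen from this comparison, nothing is read from that count. The median difference of the 8 genes was 0.00, with 4 positive and 4 negative, and that of all genes was -0.09 (SD over genes 0.80).

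**Figure D1:**
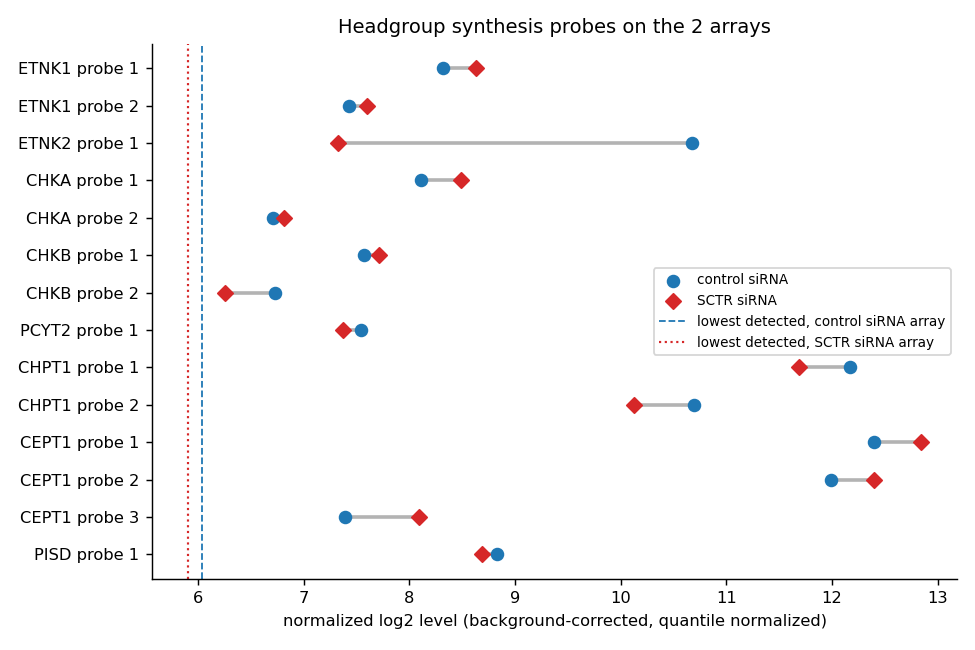
Normalized log2 level (x axis) of each of the 14 probes (rows, numbered by brightness within a gene) on the control siRNA array (circles) and the SCTR siRNA array (diamonds), 1 array each. Vertical lines mark the lowest level of a detected probe, 6.04 and 5.91. ETNK2 goes from 10.68 with control siRNA to 7.32 with SCTR siRNA, and every other row spans less than 1 log2 unit. Levels are to be compared within a row, since probes differ in brightness.

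Among the kinases, the ETNK2 probe read 1705 intensity units with control siRNA and 260 with SCTR siRNA, a ratio of 6.56 before any correction. The background was modelled at a mean of 108 units on both arrays (SD 15.3 and 16.4), so the signal remained 9.23 background SDs above background on the SCTR siRNA array and was 104 above it on the control array. Its detection p was 0 on both. The normalized levels were 10.68 and 7.32, a difference of -3.36, and the authors' processed values of 10.71 and 7.95 gave -2.76, or 6.77-fold. ETNK2 had 1 named probe, so no second probe bears on this value. In RNA of a whole culture, fewer cells with a transcript and less of it per cell cannot be told apart. Its difference was the sixth lowest of 8661 genes, and in the other settings tried its rank from the lowest was between 6 and 8.

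ETNK1, the other ethanolamine kinase gene, was slightly higher on the SCTR siRNA array by both probes. The brighter probe read 404 units with control siRNA and 498 with SCTR siRNA, a difference of 0.32 in log2 level. The dimmer, annotated to another transcript record of the gene, read 257 and 295 units, a difference of 0.16. At least as large a difference in either direction as that of the brighter probe was seen for 65.8% of all genes. The array with the low ETNK2 value thus had the higher ETNK1 values, by an amount common among genes.

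CHKA and CHKB encode choline kinases, which can also phosphorylate ethanolamine. The brighter CHKA probe read 363 and 460 units on the control and SCTR siRNA arrays, a log2 difference of 0.38. The second CHKA probe read 191 and 212 units, a difference of 0.10, close to background on both arrays (5.40 and 6.31 background SDs above it). The CHKB probes differed in sign. The brighter read 274 and 311 units, at 0.15, and the dimmer 192 and 173 units, at -0.47 and with detection p of 0.0013 and 0.0052. The mean of both probes was -0.16, so no direction can be given for CHKB. RefSeq also lists a readthrough transcript of CHKB with its neighbour CPT1B, and whether a probe matches it as well was not tested.

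**Figure D2:**
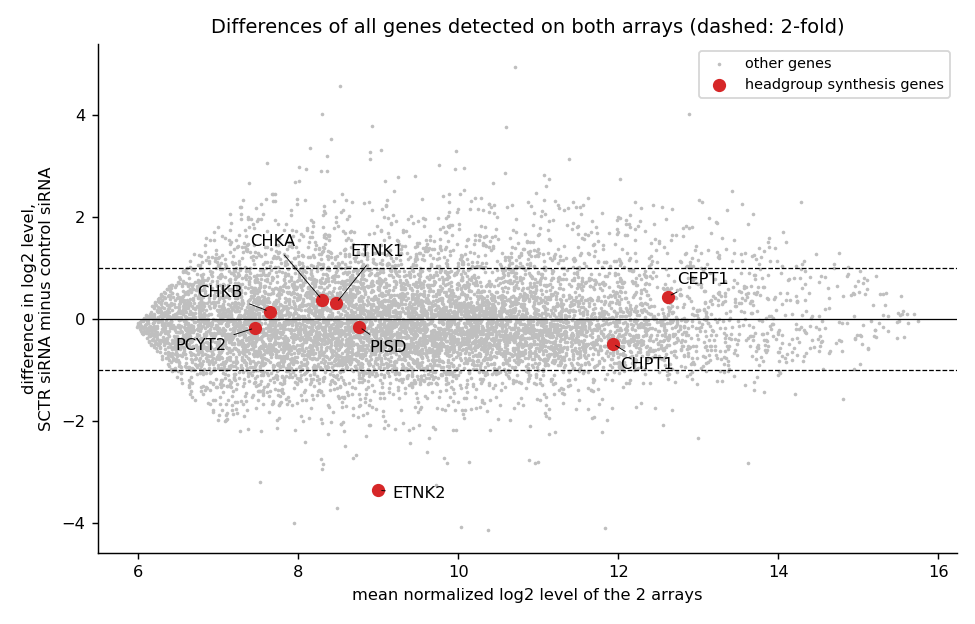
Difference in log2 level, SCTR siRNA minus control siRNA (y axis), against the mean log2 level of the 2 arrays (x axis) for 8661 genes detected on both, each by its brightest probe. Grey points are all genes, red points the 8 measured headgroup synthesis genes, and dashed lines mark 2-fold. ETNK2 lies at -3.36, among the lowest points of the plot, and the other 7 lie inside the dashed lines.

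How far 2 probes of a gene agree gives a scale for these values, although it is not an error between samples. Over 1902 genes with at least 2 detected probes, the differences given by the brightest and the next probe were a median of 0.20 log2 units apart and the 90th percentile of the gap was 0.70. The sign agreed in 82.0% of these genes, and across them the 2 values correlated with r = 0.785, where genes are not independent replicates. The member genes with more than 1 probe, 5 in number, had gaps of 0.04 (CEPT1) to 0.62 (CHKB), all under that 90th percentile. The differences of ETNK1, CHKB, PCYT2 and PISD were smaller than the SD of a single probe's difference on this scale (0.35), and those of CHKA (0.38), CEPT1 and CHPT1 slightly larger.

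At the activation step, PCYT2, which makes CDP-ethanolamine from phosphoethanolamine and is held to set the pace of the ethanolamine branch, read 271 units with control siRNA and 267 with SCTR siRNA. Its log2 difference was -0.17, against a median of -0.09 for all genes. PCYT1A, the corresponding enzyme for choline, has no value here.

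The transferases that complete the branches differed in opposite directions. CHPT1, which makes phosphatidylcholine, was lower on the SCTR siRNA array by both probes, at 4662 against 3460 units (-0.48) and at 1729 against 1227 units (-0.57). CEPT1, which accepts both CDP-choline and CDP-ethanolamine, was higher by all 3 probes. These read 5487 and 7337 units (0.44), 4142 and 5490 units (0.40), and 252 and 373 units (0.71) on the control and SCTR siRNA arrays. The brightest probes lay 298 and 204 (CHPT1) and 351 and 440 (CEPT1) background SDs above background on the control and SCTR siRNA arrays, and without background correction their differences were -0.47 (CHPT1) and 0.44 (CEPT1). These differences are 1.39-fold and 1.36-fold, and 50.6% and 53.6% of all genes were at least as far from 0.

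PISD, the mitochondrial phosphatidylserine decarboxylase, read 541 units with control siRNA and 513 with SCTR siRNA. The difference was -0.15 in log2 level, 0.06 below the median of all genes.

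**Figure D3:**
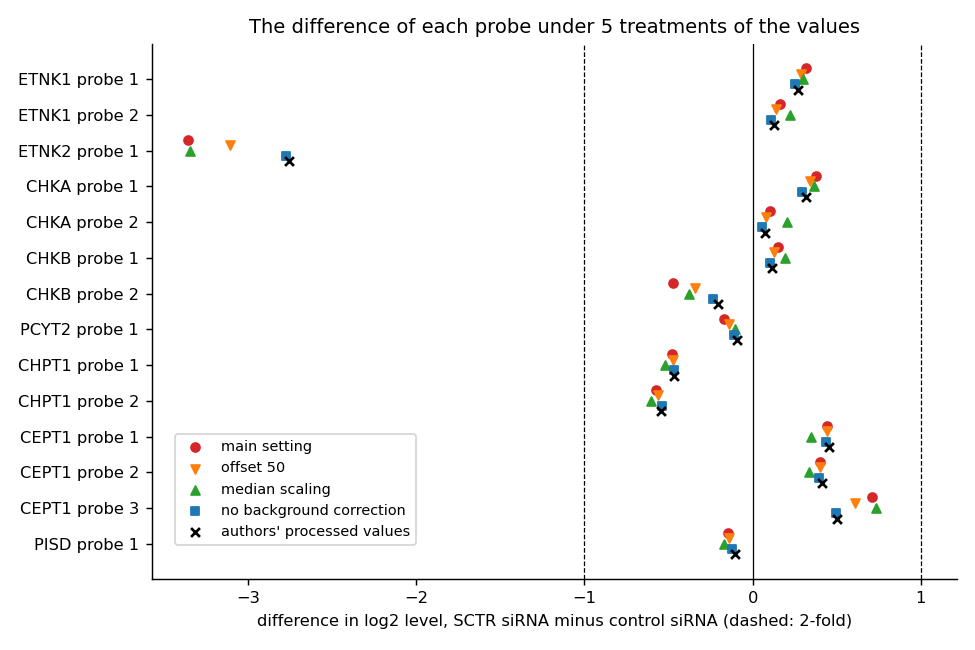
Log2 difference, SCTR siRNA minus control siRNA (x axis), of each of the 14 probes (rows) under 5 treatments of the values, marked by symbol, with dashed lines at 2-fold. ETNK2 stays between -3.36 and -2.76, and every other probe lies inside the 2-fold lines under all 5 treatments, with no change of sign.

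The pair of levels of ETNK2 was compared with that of every other gene detected on both arrays, by Euclidean distance in log2 units over the 2 arrays. The nearest were XAB2, a transcription-coupled repair and splicing factor (10.04 and 7.39, distance 0.64), EIF4E3, a cap-binding protein (10.04 and 7.32, distance 0.64), and IFNL1, a type III interferon (10.34 and 6.64, distance 0.76). UBE2Q1, a ubiquitin-conjugating enzyme (10.00 and 7.70, distance 0.78), and DGCR6L (9.82 and 7.34, distance 0.86) followed. Their differences were -2.66, -2.72, -3.70, -2.29 and -2.48, and each rested on 1 detected probe. In the authors' processed values they were smaller, at -2.10, -2.13, -2.80, -1.85 and -1.93. With 2 arrays, likeness means only a similar pair of probe levels.

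Around these 9 genes, 118 genes in 8 lists of neighbouring phospholipid steps were examined, of which 85 were detected on both arrays. Of the 85, 13 were higher and 7 lower by 2-fold or more (23.5% in either direction, against 18.2% of all genes), with a median of 0.05. These lists were written with earlier results of these data known. Of the genes named from them below, only PLPP1, PEDS1, PIGO and PIGN had a further probe detected on both arrays. For all the others, no second detected probe bears on the value.

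Among other headgroup enzymes, 2-fold or larger differences were seen for 4 of 14 measured genes, all 4 higher with SCTR siRNA, and the median was 0.00. By that rule 9.74% of all genes were higher and 8.44% lower. The count was 3 in the authors' values and 3 without background correction. The largest difference was that of SELENOI, the selenoprotein that transfers phosphoethanolamine to diacylglycerol and so completes the branch that ETNK2 begins. SELENOI read 565 units with control siRNA and 1802 with SCTR siRNA, a difference of 1.80 (3.48-fold). PTDSS1, which makes phosphatidylserine from phosphatidylcholine, read 3028 and 7450 units (1.31), and CDS1, which makes CDP-diacylglycerol, 936 and 2351 units (1.39). The fourth, SAMD8, which makes ceramide phosphoethanolamine, was at 1.12, and at 0.77 in the authors' values. PEMT, which methylates phosphatidylethanolamine, was at 0.04 and PTDSS2, which exchanges its headgroup for serine, at 0.20.

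Genes that supply phosphatidic acid and diacylglycerol had a median of 0.25 over 11 measured members. By the 2-fold rule 0 were higher (9.74% of all genes were) and 1 was lower (8.44% of all genes were). That was LPIN1, a phosphatidic acid phosphatase that forms diacylglycerol, at 4300 units with control siRNA and 1645 with SCTR siRNA (-1.47). PLPP1, a lipid phosphate phosphatase, was at 0.86 (second probe 0.22) and the glycerol-3-phosphate acyltransferase gene GPAT4 at 0.83. GPAT3, of the same enzyme family, was detected on the SCTR siRNA array only, at least 2.45-fold higher there by background-corrected levels. Its uncorrected intensities, 118 units with control siRNA and 261 with SCTR siRNA, stood in a smaller ratio.

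Of 5 measured genes for choline and ethanolamine transport, 1 was at least 2-fold higher and 1 lower (median 0.08), against 9.74% and 8.44% of all genes. FLVCR2, a choline transporter, was at -1.75, and its relative FLVCR1, which carries choline and ethanolamine, at 0.69. FLVCR1 was dim on the control array, and at 0.37 in the authors' values. SLC44A4, of the choline transporter-like family, was at 1.09, and at 0.92 under median scaling, which ends its 2-fold call.

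Genes of headgroup release and turnover had a median of 0.41 over 13 measured members. By the 2-fold rule 3 were higher and 1 was lower, against 9.74% and 8.44% of all genes. PNPLA6, which breaks down phosphatidylcholine and lysophosphatidylcholine, read 1078 and 2793 units (1.41), and remained above 2-fold in the authors' values (1.36). The phosphodiesterase genes GDPD1 (1.56) and GDPD5 (1.37) were dim on the control array, with 0.87 and 0.84 for them in the authors' processed values. PLD2, a phospholipase D, was at -1.28, and at -0.72 in the authors' processed values. GDPD3 was detected on the SCTR siRNA array only, at least 2.08-fold higher by background-corrected levels. Its uncorrected intensities, 148 units with control siRNA (detection p 0.013) and 239 with SCTR siRNA, were less than 2-fold apart.

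In acyl chain remodelling, the 2-fold rule was met by 4 of 14 measured genes, 2 in each direction, and the median was -0.03. Of all genes 18.2% met that rule in either direction. PLAAT4, a phospholipase and acyltransferase induced by interferon, read 5376 units with control siRNA and 847 with SCTR siRNA (-2.83). MBOAT1, a lysophospholipid acyltransferase, was at -1.56, and its relative MBOAT7, which acylates lysophosphatidylinositol, at 1.33, with LPCAT2 at 1.27. Ether lipid synthesis had 4 measured genes and a median of 0.31. PEDS1, the desaturase that forms plasmalogens, was at 1.30 (second probe 1.05), the fatty acyl-CoA reductase gene FAR1 at 0.52, and GNPAT, which starts the pathway, at -0.63.

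**Figure D4:**
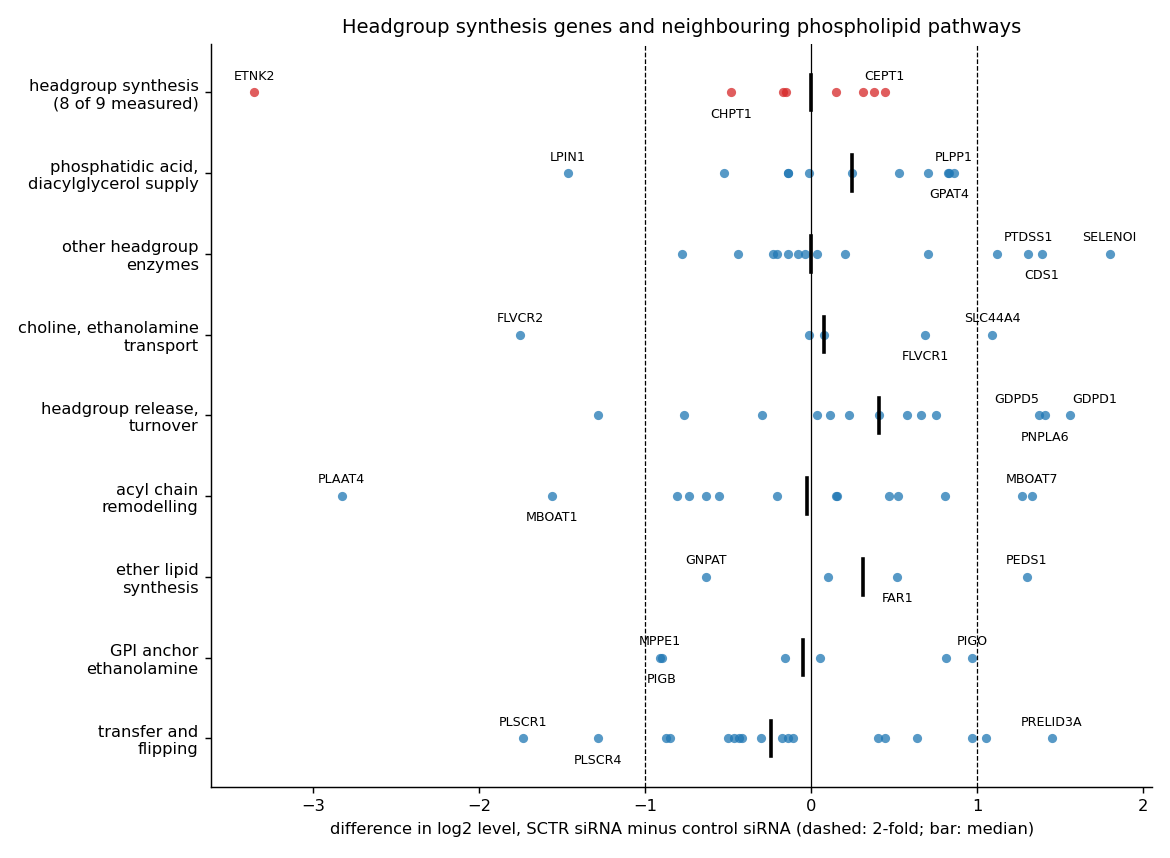
Log2 difference, SCTR siRNA minus control siRNA (x axis), of each gene detected on both arrays, in rows for the headgroup synthesis genes (red) and the 8 neighbouring lists (blue), with a bar at each median and dashed lines at 2-fold. ETNK2 at -3.36 is the lowest point in any row, PLAAT4 at -2.83 is next, and SELENOI at 1.80 is the highest.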

How the data were processed

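RNA of MCF-10A cells was labelled with biotin as cRNA, per the labels' protocols, and 1 Illumina bead array was measured per group. The deposited non-normalized table holds intensities and detection p-values per probe, and GenomeStudio 2011.1 is named in the submitters' processing notes. The authors' processed table holds log2 values of 16871 probes, made by steps that no source used here gives. Of these, 13060 probes had 1 symbol in the platform annotation. Only those are the named probes, so every gene value and every share of all genes rests on them. Gene IDs were matched to RefSeq (GRCh38.p14) for current symbols.

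In R 4.3.3, limma 3.58.1 corrected the intensities by a normal-exponential fit (background inferred from detection p-values, offset 16), and log2 values were quantile normalized. The brightest probe stood for a gene, among probes whose detection p was under 0.01 on both arrays. With 1 array per group no test was made, and differences of 2-fold or more were counted by size. For a gene detected on 1 array, its level there was compared with the dim level or the lowest detected level of the other array, whichever was higher. Such a bound holds for background-corrected levels only, and the ratio of uncorrected intensities can be smaller. The steps were tested on simulated data. The noise put in was smaller than the SD of a probe's difference estimated from pairs of probes. That test checks the computation and does not measure error between cultures.

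Members and lists were chosen with earlier results of these data known. Named genes were SCTR, the members, the 3 largest absolute differences of each list, and the 5 genes nearest to ETNK2. SAMD8, PEMT, PTDSS2, PLD2, LPCAT2, ANO6, PIGN, GPAT3, GDPD3, PLA2G12A, PNPLA7, CHDH and PLA2G6 were named after their values were seen. Alternatives were no background correction, offset 50, median scaling, the authors' values, a looser detection p (under 0.05), no filter on detection, averaged probes and a 1.5-fold rule.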

Additional observations from a re-analysis of the deposited data

How the results depend on the processing

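With 1 array per group no replicate could be left out, and no spread between cultures was measured. No paired analysis was possible because each group holds 1 array. A value was taken as moved where it shifted by more than 0.35 log2 units, the SD of a probe's difference estimated from pairs of probes, or a count by more than 1.5 times. Of 411 values recomputed under 8 alternatives, 172 were identical to the reported ones, as where a gene has 1 probe or keeps its brightest probe, and say nothing about stability. Of the other 239, 203 shifted by less than these limits, 36 moved, and 0 differences of at least 2-fold changed sign. ETNK2 was at -2.78 without background correction, -2.76 by the authors' values and -3.11 with offset 50. Among the other members CHKB alone changed sign, at -0.16 with its probes averaged. The count of all genes at least 2-fold apart, 1575, was 1032 with no background correction (417 of them lower) and 1031 by the authors' values (394 lower). A 1.5-fold rule gave 3648, of which 1693 were higher and 1955 lower. Under that rule the list counts became 5 of 11 for phosphatidic acid and diacylglycerol supply and 7 of 13 for headgroup release. They were 8 of 14 for acyl chain remodelling and 2 of 4 for ether lipid synthesis. Ethanolamine phosphate of GPI anchors had 4 of 6 and transfer and flipping 8 of 18, where 42.1% of all genes met the rule. The 2-fold count for headgroup release was 1 of 13 both with no background correction and by the authors' values, where 11.9% of all genes were called. That for transport was 1 of 5 under median scaling (18.1% of all genes). That for phosphatidic acid and diacylglycerol supply was 2 with no detection filter (18.4% of all genes). The cause of these shifts was not tested. The dimmer CHKB probe lay 5.48 and 3.97 background SDs above background.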

Other observations

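Further lists covered uses of phosphatidylethanolamine that lie outside its synthesis. Ethanolamine phosphate is also a bridge in GPI anchors, which tether proteins to the cell surface, and 0 of the 6 measured genes of that list were at least 2-fold apart, against 18.2% of all genes (median -0.05). PIGO, which adds the bridging ethanolamine phosphate, was at 0.97 (other probes 0.79 and 0.67) and PIGN, which adds another, at 0.81. MPPE1, which removes ethanolamine phosphate from the anchor, was at -0.91 and the mannosyltransferase gene PIGB at -0.90.

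Genes for moving phosphatidylserine and phosphatidylethanolamine between and across membranes had a median of -0.24 over 18 measured members, 12 negative and 6 positive, where the median of all genes was -0.09 and 44.5% of them were positive. Among the 18, 2 were lower and 2 higher by the 2-fold rule, as were 8.44% and 9.74% of all genes. The phospholipid scramblase family gene PLSCR1 read 3052 units with control siRNA and 1014 with SCTR siRNA (-1.74), and its relative PLSCR4 was at -1.29. ANO6, a calcium-activated scramblase, was at 1.06. PRELID3A, of a family of mitochondrial lipid transfer proteins, was at 1.45, dim on the control array, and at 0.80 in the authors' values. PLA2G12A, a phospholipase gene of the remodelling list, passed the detection cut on the control array only, narrowly (detection p 0.0065 and 0.013). It read 159 and 152 units on the control and SCTR siRNA arrays, so no direction is given for it. PNPLA7, CHDH and PLA2G6 were detected on neither array at a detection p under 0.01.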
